A study of Mus musculus with 6 samples.

Results

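The miR-23/27/24 clusters are a pair of paralogous groups of miRNA genes. They are represented here by 6 of the 855 precursors in the deposited table, chosen by name, with earlier results of these data known. One cluster holds mmu-mir-23a, mmu-mir-27a and mmu-mir-24-2, and its paralogue holds mmu-mir-23b, mmu-mir-27b and mmu-mir-24-1 (the mouse prefix mmu is left out from here on). Small RNAs were sequenced from whole retina of 4-week-old mice on a mixed C57BL/6J and SJL background. All animals carried floxed Dicer1 alleles (Dicer fl/fl). The 3 control libraries came from littermates without the iCre75 transgene, and the 3 conditional knockout (cKO) libraries from mice with it. The transgene drives Cre recombinase from a rod opsin promoter, so Dicer1 is deleted in rod photoreceptors while other retinal cells keep it. Each library was made from a pool of 6 retinas, and the sources used here do not name the animals of a pool.

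Each cluster is transcribed as a shared primary RNA. Drosha cuts this RNA into hairpins, and Dicer cuts each hairpin into a short duplex whose strands are the 5p and 3p miRNAs. The 3p strands are the well-studied products. miR-23 and miR-27 are known from endothelial cells, where they promote the sprouting of vessels, including choroidal vessels below the retina, and miR-27 also acts in fat and muscle cell differentiation. miR-24 is known for repressing genes of the cell cycle and of apoptosis, and in the developing frog retina it limits cell death.

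The mature sequences are shown because they set which reads can be told apart between the clusters. They are from RefSeq (GRCm38.p6), 5′ to 3′, with the seed (bases 2 to 8, which pair with target mRNAs) in capitals.
miR-23a-3p: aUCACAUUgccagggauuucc
miR-27a-3p: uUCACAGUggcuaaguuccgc
miR-27b-3p: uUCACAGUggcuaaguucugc
miR-24-3p, made by both mir-24-1 and mir-24-2: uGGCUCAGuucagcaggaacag
miR-24-1-5p: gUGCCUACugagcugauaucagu
miR-24-2-5p: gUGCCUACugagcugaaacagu
Mir23b hairpin, with the stretch that aligns to miR-23a-3p in capitals: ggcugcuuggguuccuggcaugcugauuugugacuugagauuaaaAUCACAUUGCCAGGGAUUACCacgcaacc
The seed of miR-27-3p, of miR-24-3p and of the miR-24 5p strands was the same in both clusters, and the Mir23b stretch holds the seed of miR-23a-3p. The 5p seeds of miR-23a and miR-23b differed, as did those of miR-27a and miR-27b. With positions counted from 1 at the 5′ end, miR-27a-3p and miR-27b-3p differed by 1 substitution (C19U, miR-27a base first). The stretch of the Mir23b hairpin differed from miR-23a-3p by 1 substitution (U19A, miR-23a base first). The 3p product of both mir-24 hairpins was identical, and the 5p products shared their leading 16 bases. The 5p strands of the other hairpins had less in common, with a longest shared run of 10 bases for miR-23a-5p and miR-23b-5p and of 9 bases for miR-27a-5p and miR-27b-5p.

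The deposited table has no coordinates, and the annotation used for location is of another build (GRCm38.p6) than the mm9 build of the submitters' processing notes. In GRCm38.p6 Mir23a (chr8:84208518-84208592), Mir27a (chr8:84208672-84208758) and Mir24-2 (chr8:84208815-84208921) lie on the plus strand within 404 bases. Mir23b (chr13:63300484-63300557), Mir27b (chr13:63300712-63300784) and Mir24-1 (chr13:63301208-63301275) lie on the plus strand within 792 bases. The latter cluster sits inside the protein-coding gene Aopep (2010111I01Rik in GENCODE) on the same strand and inside introns of Fancc on the opposite strand. Within Aopep, Mir23b is intronic, while Mir27b and Mir24-1 overlap annotated exons. Mir23a and Mir27a overlap no other annotated gene, and Mir24-2 overlaps an exon of the non-coding RNA gene Gm26532. A further pair of hairpins, Mir3074-2 (chr8:84208825-84208907) and Mir3074-1 (chr13:63301199-63301283), is annotated on the minus strand over Mir24-2 and Mir24-1.

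Values are RPKM, reads scaled by precursor length and by library total, as the authors deposited them. One value covers a whole precursor, so 5p and 3p reads are not separated. Whole reads could be recovered from RPKM and precursor length. Library totals were 5480940 to 7478237 reads, and the reads of a member in a library ranged from 882 to 25451. Counting error was thus at most 3.37% of a value if every read stands for a separate molecule. The sum of reads over precursors exceeded the library total 1.55-fold to 1.56-fold in control and 1.77-fold to 1.86-fold in cKO libraries. Some reads thus stand at more than 1 precursor. The photoreceptor miRNA mir-182 took 53.2% to 57.4% of control and 27.7% to 33.8% of cKO library reads. The small RNA table does not measure Dicer1 itself. mir-182 fell by 0.86 on the log2 scale (SE 0.093; limma adjusted p = 2.4e-04), while its cluster mates mir-96 and mir-183 stood at -0.49 (adjusted p = 0.048) and -0.11 (adjusted p = 0.68). Some of these calls turned on the scaling. With median-of-ratios scaling mir-182 fell by 1.59 (limma adjusted p = 7.0e-05), mir-96 by 1.22 (adjusted p = 0.0042) and mir-183 by 0.84 (adjusted p = 0.040). mir-182 also fell with library totals that leave out its own reads (-1.49, limma adjusted p = 1.4e-04). It fell as well with totals that leave out the 10 most abundant precursors (-1.36, limma adjusted p = 2.9e-04). The latter totals are reads summed over the other precursors, where a read can count more than once. Under quantile normalization mir-182 stood at -0.63 and did not pass (limma adjusted p = 0.14), while mir-96 did (-1.19, adjusted p = 0.0066). A change in mir-182 moves every other RPKM value through the shared total. In whole retina, fewer cells of a type and less RNA per cell cannot be told apart.

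The mir-27 precursors had by far the most reads and the highest RPKM of the 6 members. In RPKM, mir-27a stood at 30638, 38780 and 39659 in control 1 to 3 and at 37023, 40095 and 42190 in cKO 1 to 3. Its paralogue mir-27b stood at 38182, 48141 and 49374 in control and at 45457, 49522 and 52033 in cKO retina. Control 1 was the lowest library for both, and the genotypes overlapped in both. By mean RPKM over the 6 libraries mir-27b ranked 39 and mir-27a ranked 41 among the 855 precursors. In reads, mir-27 made up 90.8% ± 0.551 of the cluster of mir-23a and 89.9% ± 0.779 of the cluster of mir-23b in control retina (SD, n = 3 each).

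The mir-23 precursors had lower RPKM. On the log2 RPKM scale mir-27a lay above mir-23b by 3.54 ± 0.20 in control and 3.44 ± 0.064 in cKO libraries (SD, n = 3 each). For mir-23a RPKM was 2173, 2172 and 2491 in control 1 to 3 and 2432, 2848 and 2725 in cKO 1 to 3. For mir-23b it was 2998, 2891 and 3462 in control and 3417, 3880 and 3735 in cKO retina. In both precursors control 3 lay above cKO 1, so the genotypes overlapped.

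The mir-24 precursors were the members whose genotypes did not overlap as deposited. Of the 461 precursors that averaged 10 RPKM or more, 71.6% were likewise higher in cKO retina without overlap. With median-of-ratios scaling the genotypes overlapped in both mir-24 precursors. For mir-24-2 RPKM was 1150, 1446 and 1566 in control 1 to 3 and 2048, 2215 and 2079 in cKO 1 to 3. For mir-24-1 it was 1734, 2165 and 2293 in control and 3009, 3131 and 2970 in cKO retina. Every cKO library lay above every control library in both precursors, and control 1 was again the lowest.

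**Figure D1:**
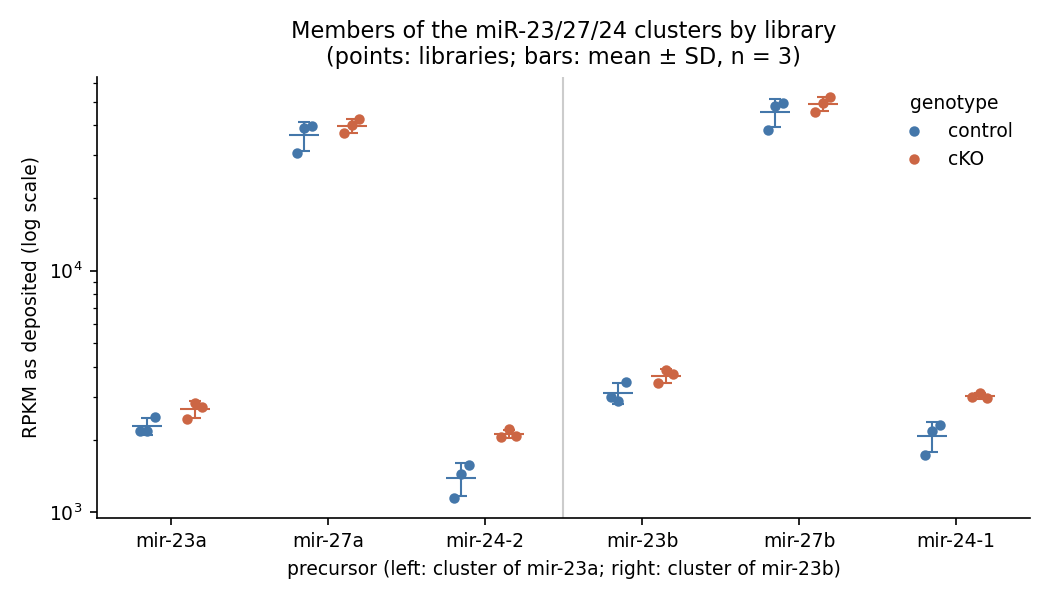
RPKM as deposited (log axis) of the 6 members in each of the 6 libraries, with mean ± SD (n = 3). The control and cKO points separate for mir-24-2 and mir-24-1 and overlap for the mir-23 and mir-27 precursors. As deposited 71.6% of the 461 tested precursors were higher in cKO retina without overlap.

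The comparison of genotypes asks how these miRNAs stand in retina whose rods lack Dicer1. Over the 461 precursors that averaged 10 RPKM or more, 69.4% rose and 1.74% fell as deposited (limma, Benjamini-Hochberg adjusted p below 0.05). All 6 members passed the filter, and 2 of them rose, none fell and 4 did not pass. Paralogues may share reads, so the 6 members may not be separate measurements. mir-24-2 rose 1.54-fold (log2 fold change 0.62, SE 0.15; limma adjusted p = 0.0052), and mir-24-1 rose 1.48-fold (0.57, SE 0.15; adjusted p = 0.0067). The log2 fold change was 0.23 (SE 0.14; adjusted p = 0.15) for mir-23a and 0.24 (SE 0.14; adjusted p = 0.13) for mir-23b. It was 0.14 (SE 0.13; adjusted p = 0.37) for mir-27a and 0.12 (SE 0.13; adjusted p = 0.41) for mir-27b.

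Each of the 6 log2 fold changes was positive and below the median of 0.74 over all tested precursors, and their own median was 0.23. Ordered from the highest rise, mir-24-2 stood at place 303 and mir-24-1 at place 317 of 461. The mir-23 precursors stood at places 402 and 404, and the mir-27 precursors at places 418 and 420. The groups did not overlap in 2 of 6 members, higher in cKO, where 71.6% of all tested precursors did not overlap in that direction and 1.95% in the other.

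**Figure D2:**
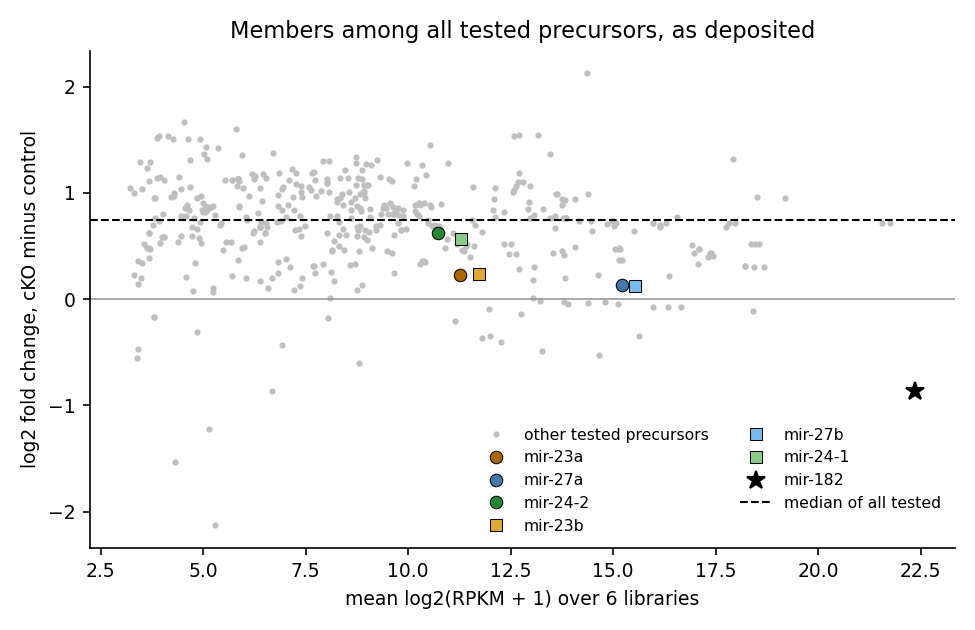
Log2 fold change (cKO minus control) against mean log2(RPKM + 1) for the 461 tested precursors as deposited, with the 6 members, mir-182 and the median of all tested (0.74) marked. All 6 members lie between 0 and that median, the mir-27 pair nearest to 0.

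The direction of these values turned with the scaling of the libraries. Median-of-ratios scaling sets the typical precursor equal between libraries and moved the median of all tested precursors from 0.74 to 0.018. Under it 9.98% of all tested precursors fell and 2.17% rose. Of the 6 members 4 fell, none rose and 2 did not pass. mir-27b fell by 0.61 on the log2 scale (SE 0.11; limma adjusted p = 0.0059) and mir-27a by 0.59 (SE 0.11; adjusted p = 0.0074). mir-23a fell by 0.50 (SE 0.11; adjusted p = 0.017) and mir-23b by 0.49 (SE 0.11; adjusted p = 0.018). In these 4 the scaled cKO libraries all lay below the control libraries, as in 20.0% of all tested precursors, and no member was higher without overlap, as 15.2% of all tested were. mir-24-1 stood at -0.16 (adjusted p = 0.43) and mir-24-2 at -0.11 (adjusted p = 0.64).

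Other scalings gave values between these. With library totals that leave out mir-182 reads, 7.81% of all tested precursors fell and 4.34% rose. Both mir-27 precursors fell, at -0.50 and -0.49 (limma adjusted p = 0.013 and 0.015), while mir-23a and mir-23b stood at -0.40 and -0.38 (adjusted p = 0.067 and 0.076). With reads summed over all precursors but the 10 most abundant as totals, 6.29% of all tested precursors fell and 13.7% rose. Both mir-27 precursors again fell, at -0.38 and -0.36 (limma adjusted p = 0.040 and 0.047). Under quantile normalization none of the 6 members passed (limma adjusted p = 0.12 to 0.94), where 6.29% of all tested precursors fell and 2.60% rose.

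**Figure D3:**
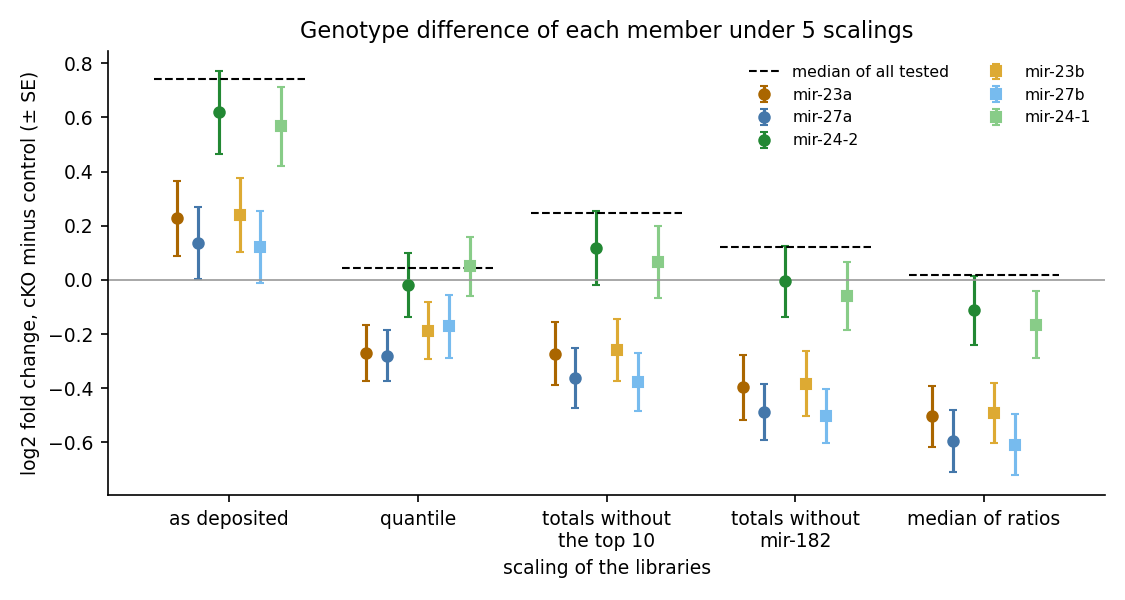
Log2 fold change (cKO minus control, ± SE) of each member under 5 scalings of the libraries, with the median of all 461 tested precursors dashed. The mir-24 pair stays above the mir-23 and mir-27 precursors under each of these 5 scalings. Apart from quantile normalization, the scalings apply a single factor to a library, so they cannot change the order of the members. All 6 members are positive as deposited, and all 6 are negative with median-of-ratios scaling.

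A ratio of 2 precursors in the same library does not depend on its total, and this was used to compare members within a cluster. By log2 fold change the mir-27 precursors stood at places 418 and 420 of 461, and the mir-23 precursors at places 402 and 404. Most tested precursors therefore rose relative to either, so a higher ratio to them is not particular to mir-24. The share of tested precursors without overlap in such a ratio was not counted. In the cluster of mir-23a there were 4.62, 4.59 and 4.86 reads of mir-24-2 per 100 reads of mir-27a in control 1 to 3. In cKO 1 to 3 there were 6.80, 6.80 and 6.06. The groups did not overlap, and the ratio was 1.40-fold higher in cKO retina (log2 difference 0.48). In the cluster of mir-23b there were 4.23, 4.19 and 4.33 reads of mir-24-1 per 100 reads of mir-27b in control and 6.17, 5.89 and 5.32 in cKO retina. The groups again did not overlap, and the ratio was 1.36-fold higher in cKO retina (log2 difference 0.44). Both differences gave an exact two-sided permutation p = 0.1, the smallest that 3 libraries against 3 allow (adjusted p = 0.15 over 6 such ratios). Here and below, the ratios of the clusters may not be separate measurements, since reads can be counted at both paralogues.

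Relative to mir-23 the mir-24 reads were also higher in cKO retina. There were 86.7 ± 10.1 reads of mir-24-2 per 100 reads of mir-23a in control against 113 ± 6.03 in cKO libraries (n = 3 each, SD; two-sided exact permutation p = 0.1, adjusted p = 0.15). There were 60.9 ± 7.82 reads of mir-24-1 per 100 reads of mir-23b in control against 76.1 ± 4.26 in cKO libraries (n = 3 each, SD; two-sided exact permutation p = 0.1, adjusted p = 0.15). In both ratios every cKO library lay above every control library. The ratio of mir-23 to mir-27 overlapped between genotypes in both clusters, with log2 differences of 0.091 and 0.12 (exact two-sided permutation p = 0.4 and 0.5, adjusted p = 0.48 and 0.50). These 6 ratios were chosen after the values of the members were seen.

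**Figure D4:**
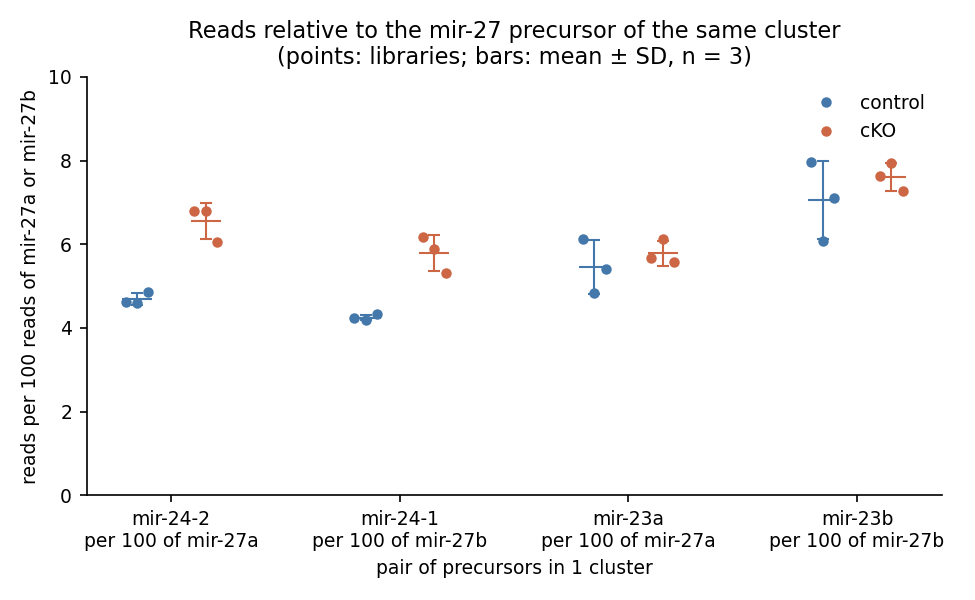
Reads of mir-24 and mir-23 precursors per 100 reads of the mir-27 precursor of the same cluster, by library, with mean ± SD (n = 3). The mir-24 ratios lie between 4.19 and 4.86 in control and between 5.32 and 6.80 in cKO libraries, and the mir-23 ratios overlap. Most tested precursors rose relative to the mir-27 precursors, which stood at places 418 and 420 of 461 by log2 fold change.

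The 2 clusters were then set side by side. Summed over its 3 precursors, the cluster of mir-23a held 0.348% ± 0.0463 of control and 0.389% ± 0.0242 of cKO library reads (SD, n = 3 each). The cluster of mir-23b held 0.367% ± 0.0478 and 0.406% ± 0.0256 (SD, n = 3 each). The genotypes overlapped in both sums, with log2 differences of 0.17 and 0.15 (exact two-sided permutation p = 0.3 and 0.4). Without control 1 they were 0.051 and 0.038. With median-of-ratios scaling these differences turned to -0.57 and -0.58, and the groups then did not overlap (exact two-sided permutation p = 0.1 each, the smallest possible). The sums cannot be added, since the same reads can stand in both clusters.

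Per length, each precursor of the cluster of mir-23b was higher than its paralogue in 6 of 6 libraries. The RPKM ratio was 1.37 for mir-23b to mir-23a, 1.24 for mir-27b to mir-27a and 1.46 for mir-24-1 to mir-24-2 (exact two-sided sign-flip permutation p = 0.031 each, the smallest that 6 libraries allow; adjusted p = 0.031 over 4 ratios). RPKM divides by the length of the hairpin, which is 75 and 74 bases for mir-23a and mir-23b, 87 and 73 for mir-27a and mir-27b, and 107 and 68 for mir-24-2 and mir-24-1. In reads, mir-23b exceeded mir-23a 1.35-fold and mir-27b exceeded mir-27a 1.04-fold. The order of the mir-24 pair turned, with mir-24-1 at 0.930 times the reads of mir-24-2. Each of these read ratios had the same sign in 6 of 6 libraries, and so the same sign-flip permutation p = 0.031. The sign of the mir-24 ratio per length was thus set by the hairpin lengths, and most of the mir-27 ratio came from them. The p-values per length therefore cannot show which of these paralogues had the higher level.

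These ratios between paralogues moved little with genotype. Reads counted at both paralogues make such a ratio less free to move, and their number is not known. A steady ratio therefore cannot show whether the clusters themselves moved alike. On the log2 RPKM scale the ratio of mir-23b to mir-23a was 0.45 ± 0.033 in control against 0.46 ± 0.024 in cKO libraries (n = 3 each, SD; two-sided exact permutation p = 0.7). The ratio of mir-24-1 to mir-24-2 was 0.57 ± 0.022 and 0.52 ± 0.029 (n = 3 each, SD; two-sided exact permutation p = 0.2, adjusted p = 0.27). The ratio of mir-27b to mir-27a was 0.315 ± 0.0029 in control against 0.301 ± 0.0045 in cKO libraries (n = 3 each, SD). Its groups did not overlap, although they differed by only 0.014 on the log2 scale (exact two-sided permutation p = 0.1, adjusted p = 0.20). For the cluster sums the ratio was 0.333 ± 0.0053 and 0.323 ± 0.0012 (SD, n = 3 each), also without overlap (exact two-sided permutation p = 0.1, adjusted p = 0.20).

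The reads show how far the paralogues are separate measurements. mir-27a had 19933, 23260 and 24364 reads in control 1 to 3 and 22308, 24119 and 20118 in cKO 1 to 3. mir-27b had 20844, 24228 and 25451 reads in control and 22982, 24996 and 20819 in cKO retina. The difference was 674 to 1087 reads, or 2.93% to 4.37% of the larger value, in every library. Across the 6 libraries their log2(RPKM + 1) values had a Pearson correlation of 0.999, described without a test. The table does not say which reads were counted at both, and the sources used here do not give the number of mismatches allowed in mapping.

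mir-23a and mir-23b, which also differ by a single base of the 3p strand at position 19, were further apart. mir-23a had 1219, 1123 and 1319 reads in control and 1263, 1477 and 1120 in cKO retina. mir-23b had 1659, 1475 and 1809 reads in control and 1751, 1985 and 1515 in cKO retina. The difference was 23.9% to 27.9% of the larger value, and the Pearson correlation over the 6 libraries was 0.988.

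The mir-24 pair, with its identical 3p strand, had 882, 1015 and 1101 reads at mir-24-1 in control and 1417, 1472 and 1107 in cKO retina. At mir-24-2 it had 920, 1067 and 1183 reads in control and 1518, 1639 and 1219 in cKO retina. mir-24-1 minus mir-24-2 was -38 to -167 reads, or 4.13% to 10.2% of the larger value. At least that many reads in a library stood at mir-24-2 and not at mir-24-1, and how many of the others were counted at both is not known.

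The opposite-strand precursors had almost the same reads as the mir-24 hairpins they overlap. mir-3074-1 had 882, 1016 and 1101 reads in control and 1419, 1474 and 1107 in cKO retina, at most 2 reads from mir-24-1 in any library. mir-3074-2 differed from mir-24-2 by at most 1 read and equalled it in 4 of 6 libraries. Whether counting used the strand is not given, and reads of a hairpin and of its opposite-strand partner cannot be told apart here. miR-3074-5p (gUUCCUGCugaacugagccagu) is the reverse complement of miR-24-3p over 20 bases. The rises of mir-3074-1 (log2 fold change 0.57; limma adjusted p = 0.0069) and mir-3074-2 (0.62; adjusted p = 0.0050) are therefore not measurements apart from those of mir-24-1 and mir-24-2. Of 10 pairs of opposite-strand precursors in the table that overlap by at least 40 bases, 4 had equal reads in all 6 libraries.

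**Figure D5:**
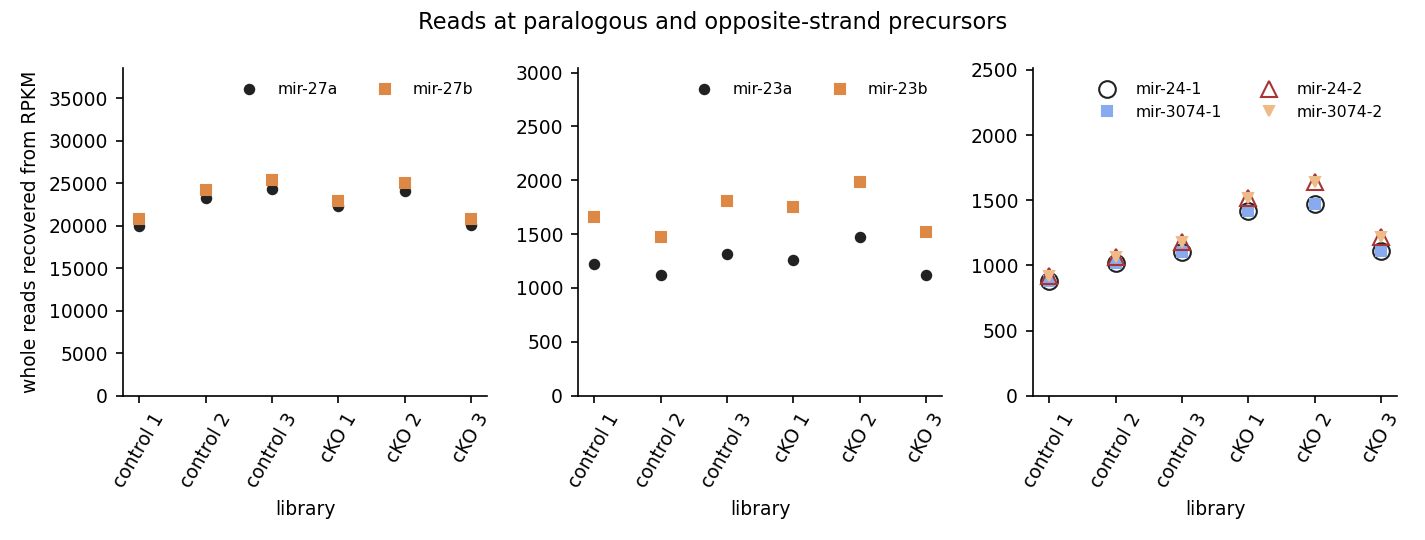
Whole reads recovered from RPKM in each library for the mir-27, mir-23 and mir-24 precursors and the opposite-strand mir-3074 precursors (linear axes from 0). The mir-27 pair differs by under 4.4% of the larger value, the mir-23 pair by 23.9% to 27.9%, and each mir-3074 point lies on its mir-24 partner.

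In the order of levels per length, mir-27b was followed by mir-27a and then by mir-23b in 6 of 6 libraries. Per length mir-23b lay above mir-24-1, and mir-23a above mir-24-2, in every library as well. The order of mir-23a and mir-24-1 per length differed between genotypes. In RPKM mir-24-1 lay below mir-23a in 3 of 3 control libraries, with a log2 ratio of -0.15 ± 0.16, and above it in 3 of 3 cKO libraries, at 0.19 ± 0.10 (SD, n = 3 each). In control retina this gap was within the spread between libraries. In reads, not divided by length, mir-24-1 lay above mir-23a in cKO 1 (1417 against 1263) but below it in cKO 2 (1472 against 1477) and cKO 3 (1107 against 1120). In reads it was mir-24-2 that lay below mir-23a in 3 of 3 control and above it in 3 of 3 cKO libraries.

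The precursors whose profile over the 6 libraries was most like each member were described by Pearson correlation of log2(RPKM + 1) among 300 others of at least 100 RPKM. These correlations share the library totals and are given without a test. For both mir-27a and mir-27b the closest was mir-339 (0.984 and 0.987), whose log2 fold change was 0.13, followed by mir-29b-1 and mir-29b-2. For mir-23a the closest were mir-22 (0.978), mir-30c-2 (0.977) and mir-30c-1 (0.976). For mir-23b they were mir-455 (0.981), mir-30c-1 and mir-30c-2 (both 0.977). For both mir-24 precursors the closest beside the mir-3074 rows was mir-361 (0.995 for mir-24-2 and 0.996 for mir-24-1). A correlation above 0.9 was reached by 8 of the 300 for each mir-27 precursor, by 27 and 37 for mir-23b and mir-23a, and by 125 and 133 for mir-24-1 and mir-24-2.

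Among the mature miRNAs of the RefSeq table, no other precursor shared the seed of miR-23-3p or miR-27-3p. The seed of miR-24-3p also occurred in miR-6413, miR-6410, miR-6369 and miR-5124b, whose precursors had means of 0.219 to 0.262 RPKM and were not tested. miR-128, a neuronal miRNA whose seed overlaps that of miR-27 with an offset, rose as deposited. mir-128-1 went from a mean of 4867 to 6969 RPKM (log2 fold change 0.52, SE 0.13; limma adjusted p = 0.0048), and mir-128-2 rose likewise (0.52; adjusted p = 0.0050). Scaled by median of ratios, mir-128-1 was at -0.21 and mir-128-2 at -0.22, and neither passed (adjusted p = 0.25 each).

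A list of vascular miRNAs was set beside the clusters because the miR-23/27/24 clusters are known from endothelial cells. Of its 9 precursors 8 passed the filter, and mir-214, at 5.93 RPKM in control and 11.0 in cKO retina, did not. As deposited 8 of 8 rose, and their median was 0.62 on the log2 scale against 0.74 over all tested precursors, of which 69.4% rose. The number in the list was 3 to 8 when each library was left out in turn (4 without control 1, control 2 or cKO 3, and 3 without cKO 2), 5 without a filter and 5 without a trend in the variance. mir-126 of endothelium stood at 7108 ± 1740 RPKM in control against 17991 ± 806 in cKO libraries (n = 3 each, SD; log2 fold change 1.37, SE 0.17; limma adjusted p = 3.1e-04). mir-221, which restrains endothelial growth, rose by 0.76 on the log2 scale (limma adjusted p = 0.0056), and its neighbour mir-222 by 0.60 (adjusted p = 0.011). mir-143 and mir-145a of mural cells rose by 0.64 and 0.77 (limma adjusted p = 0.043 and 0.0072), with overlapping groups for mir-143. mir-199a-1, mir-199a-2 and mir-199b, which are near-identical and not separate measurements, rose by 0.46, 0.45 and 0.46 (adjusted p = 0.036 to 0.039).

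With median-of-ratios scaling only mir-126 of this list rose (0.64; limma adjusted p = 0.020), and 7 did not pass, where 2.17% of all tested precursors rose and 9.98% fell. The list summed to 20048 to 36777 RPKM in control and 42989 to 57015 RPKM in cKO libraries, without overlap and with none of its members at 0 in every library. Among lists for other cells that a retina sample can hold, pigment epithelium miRNAs (mir-204 and mir-211, which neural retina also makes) summed to 655315 to 758334 RPKM in control and 1197360 to 1475670 RPKM in cKO libraries, and red cell miRNAs to 16553 to 19359 and 26668 to 31080 RPKM. White cell miRNAs summed to 2257 to 2961 and 4057 to 5976 RPKM. The red cell sum was mostly mir-486 and the white cell sum mostly mir-150, with means of 17373 and 2135 RPKM in control retina. These and mir-451a and mir-142 were higher in cKO retina without overlap. The other members, mir-144, mir-146a, mir-155 and mir-223, overlapped between genotypes. Lens and cornea miRNAs overlapped between genotypes, at 2398 to 54284 and 25331 to 63265 RPKM, as did the neuronal mir-124 precursors, at 203586 to 291230 and 222199 to 265609 RPKM. These sums are not levels of separate miRNAs, since the same reads can stand at several precursors of a list. In control 1 the 3 mir-124 precursors had 42717, 42736 and 42693 reads, and mir-204 and mir-211 had 206361 and 197783. The mir-199 precursors of the vascular list had 180 reads each. As deposited 71.6% of all tested precursors were higher in cKO retina without overlap. With median-of-ratios scaling no tested precursor of the pigment epithelium, red cell or white cell list passed, and their median log2 fold changes were 0.23, 1.6e-04 and 0.025. Some rose under the other scalings. With totals that leave out the 10 most abundant precursors these were mir-204, mir-211, mir-150 and mir-451a (limma adjusted p = 0.0064 to 0.044), where 13.7% of all tested rose. Without mir-182 in the totals they were mir-204 and mir-211 (limma adjusted p = 0.025 each). Under quantile normalization they were mir-211 and mir-150 (limma adjusted p = 0.0031 and 0.038). The part of these cells in the levels of the miR-23/27/24 clusters was not tested.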

How the data were processed

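Small RNAs of 6 retina pools (3 control, 3 cKO) were analysed. Per the labels' protocols, libraries were made with an adapter-ligation small RNA kit from pools of 6 retinas, amplified by 11 rounds of PCR and sequenced in a shared run. The authors deposited RPKM values for 855 miRNA precursors, and per the submitters' processing notes Bowtie and mm9 were used. The sources used here do not give the Bowtie version, annotation, mismatch limit or use of strand. RPKM times precursor length gave whole reads in 100% of 4872 values (tolerance 0.01 reads), with lengths from RefSeq for 639 and GENCODE M21 for 173 precursors. These values include zeros, which are whole at any length, and 203 of the 855 precursors were 0 in all libraries. For 39 others the length was taken as the shortest of at least 40 bases that gave whole reads in all libraries. Reads carry no molecular identifiers, so PCR copies count as separate reads and counting error is a lower limit.

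Genotypes were compared in limma 3.58.1 (R 4.3.3, eBayes, trended prior), using log2(RPKM + 1) of the 461 precursors that averaged 10 RPKM or more, and p-values were adjusted by Benjamini-Hochberg (threshold 0.05). This scale understates changes of low precursors. Single values were tested by exact permutation (scipy 1.17.1), two-sided. Figures were drawn with matplotlib 3.10.9. Named precursors are the 6 members, their opposite-strand partners, precursors with the same or an offset seed, the vascular list, mir-182, mir-183 and mir-96 of photoreceptors and, for each member, the 3 most correlated precursors. The members and lists were chosen with earlier results of these data known. Within-cluster ratios and ratios of reads were added after seeing the data. The series' design text calls the replicates biological, and p-values measure the spread between these pools. Other settings are in the closing section, and lists for other cell types are described by their sums.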

Additional observations from a re-analysis of the deposited data

How the results depend on the processing

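Pseudocounts of 0.1 and 10, other filters, a variance prior without trend, limma voom on recovered reads and the replicate block left the direction and call of all 6 members as they were (42 of 42 values). The labels do not say whether replicate numbers pair the libraries. Deviations of same-numbered libraries correlated at 0.19, 0.26 and 0.0093, and those of differently numbered libraries at -0.22 to 0.048. cKO 3 correlated better with control 2 (0.048) than with control 3. With the replicate block 338 precursors rose instead of 320, and 10 fell instead of 8. mir-24-1 stood at 0.57 (limma adjusted p = 0.0065), and no call of a member changed. Scaling turned or ended calls, and the cause was not tested. With median-of-ratios scaling log2 fold changes were -0.50 (mir-23a), -0.59 (mir-27a), -0.11 (mir-24-2), -0.49 (mir-23b), -0.61 (mir-27b), -0.16 (mir-24-1), -0.16 (mir-3074-1), -0.11 (mir-3074-2), -0.091 (mir-143), -0.27 (mir-199a-1), -0.28 (mir-199a-2), -0.27 (mir-199b) and -0.13 (mir-222). The cluster sums stood at -0.57 (mir-23a) and -0.58 (mir-23b). With quantile normalization they were -0.27 (mir-23a), -0.28 (mir-27a), -0.019 (mir-24-2), -0.19 (mir-23b), -0.17 (mir-27b), 0.049 (mir-24-1), -0.038 (mir-3074-1), -0.073 (mir-145a), -0.34 (mir-199a-1), -0.28 (mir-199a-2), -0.27 (mir-199b), -0.049 (mir-221) and -0.26 (mir-222). Without mir-182 reads in the totals they were -0.40 (mir-23a), -0.49 (mir-27a), -0.0059 (mir-24-2), -0.38 (mir-23b), -0.50 (mir-27b), -0.058 (mir-24-1), -0.057 (mir-3074-1), -0.0059 (mir-3074-2), -0.17 (mir-199a-1), -0.17 (mir-199a-2), -0.17 (mir-199b) and -0.025 (mir-222), and the cluster sums -0.46 and -0.48. Without the 10 most abundant precursors in the totals they were -0.27 (mir-23a), -0.36 (mir-27a), 0.12 (mir-24-2), -0.26 (mir-23b), -0.38 (mir-27b), 0.067 (mir-24-1), -0.043 (mir-199a-1), -0.045 (mir-199a-2) and -0.041 (mir-199b). Over all tested precursors 320 rose and 8 fell as deposited, against 10 and 46 with median-of-ratios scaling, 12 and 29 with quantile normalization, 20 and 36 without mir-182, and 63 and 29 without the 10 most abundant. With a filter of 100 RPKM 4 fell. In the vascular list 1 precursor rose under each of these 4 scalings, 5 without a filter and 5 without a trend. Not divided by length, the ratio of mir-24-1 to mir-24-2 was -0.105 instead of 0.55 on the log2 scale.

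Leaving out each library in turn, the number that fell ran from 4 to 12 (4 without control 2 or control 3, 5 without cKO 2 or cKO 3) and the vascular number from 3 to 8. No member lost or gained a call: mir-24-2 ran from 0.49 to 0.71 and mir-24-1 from 0.45 to 0.65 (limma adjusted p = 0.0050 to 0.033), mir-27b from 0.0052 to 0.19 (lowest without control 1) and mir-27a from 0.018 to 0.20. The calls of mir-143, mir-222 and the mir-199 precursors ended in at least 1 of these fits (limma adjusted p up to 0.15). The cluster sums ran from 0.051 to 0.23 (mir-23a) and from 0.038 to 0.22 (mir-23b), both lowest without control 1. The genotype difference in the ratio of mir-23b to mir-23a ran from -0.0056 to 0.026. Paralogue ratios over 5 libraries kept their sign, from 0.45 to 0.47 (mir-23b to mir-23a), 0.31 to 0.31 (mir-27b to mir-27a), 0.54 to 0.56 (mir-24-1 to mir-24-2) and 0.33 to 0.33 (clusters), but 5 libraries cannot give an exact sign-flip p below 0.0625.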
